A study of Mus musculus with 36 samples.

Results

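The 9 genes described here, Hif1a, Egln3, Hk2, Pfkp, Pfkfb3, Aldoa, Pgk1, Ldha and Pdk1, belong to glycolysis and to its control by hypoxia-inducible factor 1 (HIF-1). They were chosen by name as a pathway set. All 9 passed the filter on low values in both tables of this RNA-seq study, where they are 9 of 10524 genes tested in microglia and 9 of 13842 tested in astrocytes. Microglia and astrocytes were grown from pooled brains of newborn C57BL/6 mice as mixed glia. Microglia were then selected by the surface protein CD11b, and astrocytes were isolated from the cells left over with a positive selection kit. The microglia carried 6 treatments with 4 libraries each, and the astrocytes carried 4 treatments with 3 libraries each, all for 4 h. The vehicle was DMSO. T/5z is TNF with 5z-7, an inhibitor of the kinase TAK1, and serves to start apoptosis that needs the kinase RIPK1. T/S/Z is TNF with a Smac mimetic (S) and the caspase inhibitor zVAD (Z), and serves to start necroptosis. Nec-1s (N), an inhibitor of the RIPK1 kinase, was given alone and with each stimulus (written T/5z/N or T/S/Z/N), and astrocytes received no T/5z. The methods describe inhibitors, Nec-1s among them, as typically given before TNF. No group received TNF alone, the Smac mimetic alone or an inhibitor other than Nec-1s alone, so a difference from DMSO belongs to the mixture. The study's methods describe replicates in general as biological, such as cultures from different litters. The labels do not tie a library to a litter, and p-values measure the spread between these libraries.

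Glycolysis turns glucose into pyruvate, and lactate dehydrogenase turns pyruvate into lactate when it does not enter mitochondria. HIF-1 is a transcription factor whose alpha subunit, encoded by Hif1a, is made constantly and destroyed in the presence of oxygen after prolyl hydroxylases such as the product of Egln3 mark it. Activated macrophages and microglia are known to raise glycolysis, and many glycolytic genes, as well as Egln3 itself, are known targets of HIF-1. Among the enzymes, Hk2 encodes a hexokinase that traps glucose in the cell, Pfkp a phosphofructokinase, and Pfkfb3 the enzyme that makes fructose 2,6-bisphosphate, an activator of phosphofructokinase. Aldoa encodes aldolase, Pgk1 phosphoglycerate kinase and Ldha the A subunit of lactate dehydrogenase. Pdk1 encodes a kinase that limits the use of pyruvate in mitochondria.

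HIF-1 binds DNA at a short core, and the promoters of the 5 members that rose with T/S/Z in microglia are printed here to let the core be seen in place. The RefSeq promoter table (GRCm38.p6) matched 9 of 9 members with 14 promoters. The 250 bases before each start were searched. The letters ACGTG or GCGTG were looked for on both strands, so that the other strand shows CACGT or CACGC, and overlapping matches were merged. These letters were found in 12 of the 14 promoters and in at least 1 promoter of each of the 9 members, whereas 38.6% of 32851 promoters in the table held them. This share counts promoters and not genes. Promoters 2 and 3 of Aldoa overlap and hold the same site, 121 and 197 bases before their starts. An NF-κB consensus motif, searched in the same windows, was found in 1 of the 14 promoters, that of Pgk1, and in 7.25% of all promoters. A match is a run of letters and no evidence of binding. Capitals mark the core, and each stretch reads 5′ to 3′ on the strand of the gene and ends at the base before its start. The stretches lie at chr12:73907617-73907866 (plus strand) for Hif1a, chr12:54203875-54204124 (minus) for Egln3, chr6:82774455-82774704 (minus) for Hk2, chr2:11553930-11554179 (minus, the outer of 2 promoters) for Pfkfb3 and chrX:106186850-106187099 (plus) for Pgk1.
Hif1a: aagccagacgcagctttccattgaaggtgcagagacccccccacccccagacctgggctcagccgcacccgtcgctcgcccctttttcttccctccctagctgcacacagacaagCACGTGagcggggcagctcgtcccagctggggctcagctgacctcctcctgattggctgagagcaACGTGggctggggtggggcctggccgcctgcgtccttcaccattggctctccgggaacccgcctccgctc
Egln3: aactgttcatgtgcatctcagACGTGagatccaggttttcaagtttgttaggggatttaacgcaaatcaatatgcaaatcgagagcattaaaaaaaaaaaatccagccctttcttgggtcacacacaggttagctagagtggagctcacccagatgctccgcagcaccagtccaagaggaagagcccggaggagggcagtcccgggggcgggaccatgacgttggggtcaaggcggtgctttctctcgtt
Hk2: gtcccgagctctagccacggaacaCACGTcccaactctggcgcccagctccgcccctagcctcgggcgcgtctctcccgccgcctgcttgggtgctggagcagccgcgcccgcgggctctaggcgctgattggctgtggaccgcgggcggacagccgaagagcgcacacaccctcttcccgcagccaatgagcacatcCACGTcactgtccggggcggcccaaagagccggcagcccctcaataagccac
Pfkfb3: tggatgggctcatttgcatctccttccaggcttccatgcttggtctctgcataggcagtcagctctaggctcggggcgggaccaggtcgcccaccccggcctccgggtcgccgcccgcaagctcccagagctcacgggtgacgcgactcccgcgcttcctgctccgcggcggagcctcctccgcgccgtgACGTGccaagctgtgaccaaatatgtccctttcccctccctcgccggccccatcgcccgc
Pgk1: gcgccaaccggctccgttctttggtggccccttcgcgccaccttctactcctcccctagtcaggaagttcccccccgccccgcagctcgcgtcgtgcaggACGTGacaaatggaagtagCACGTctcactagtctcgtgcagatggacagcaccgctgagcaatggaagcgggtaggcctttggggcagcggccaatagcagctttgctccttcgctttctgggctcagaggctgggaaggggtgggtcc
The stretches of Hif1a, Hk2 and Pgk1 held 2 sites each, and those of Egln3 and Pfkfb3 held 1 site each. The site of Egln3 ended 224 bases before the start, whereas the nearest site of Hk2 ended 47 bases before it. Among the members that did not pass the fold limit with T/S/Z in microglia, the promoter of Pfkp and the first promoter of Ldha held 3 sites each.

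Values are log2(FPKM + 1), where FPKM is fragments per kilobase of exon, scaled for the size of the library, and they were set to a common 75th percentile within each table. The tables hold no total counts, so the depth of a library is unknown. The labels name a different provider for microglial and for astrocyte libraries, although the study's methods name the BGI platform for both. The tables were also normalized separately. Cell type therefore cannot be told apart from provider or processing, and no test crossed the tables. Microglial values had been shifted so that every replicate had the same mean for a given gene, to within 6.67e-05, an adjustment the methods do not describe, and 187 to 1438 values per library were below 0 in replicates 1 to 3. No value of a member was below 0. The 9 microglial markers summed to 5761 to 7046 FPKM in the microglial libraries, and the 8 astrocyte markers summed to 2677 to 3125 FPKM in the astrocyte libraries, so each table carried the markers of the cell type its labels name. Markers of other cells also moved with the stimuli. In microglia, the astrocyte markers summed to 6.25 to 8.36 FPKM with DMSO, 11.5 to 20.8 with T/5z, 7.48 to 8.07 with T/5z/N, 12.8 to 18.4 with T/S/Z and 4.34 to 5.35 with T/S/Z/N. In astrocytes with DMSO the same 8 markers summed to 3017 to 3067 FPKM. These sums in microglia were higher with each stimulus and lower where Nec-1s was given too, as were Egln3, Hk2 and Pgk1 with T/S/Z. In the same groups the 7 fibroblast or vessel markers summed to 11.8 to 14.5, 13.7 to 19.4, 8.72 to 10.4, 6.34 to 8.20 and 5.64 to 7.29 FPKM, so that every T/S/Z library was below every DMSO library. The 7 oligodendrocyte lineage markers summed to 30.6 to 32.6, 25.6 to 29.6, 26.7 to 30.5, 27.5 to 37.7 and 31.2 to 32.0 FPKM. The 3 of them that passed the filter had a median log2 difference of 0.70 for T/S/Z against DMSO and -1.03 for T/S/Z/N against T/S/Z. Each time 1 of the 3 went the other way. The part of these markers in the results was not tested. The deposited annotation marks Hif1a, Hk2, Pfkfb3, Pfkp and Aldoa as confounded without defining the word, and if it means overlap with another gene their values may include reads of a neighbor. RNA of a whole culture was measured, in which fewer cells of a type and less RNA per cell cannot be told apart.

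At rest the members spanned a wide range of expression in microglia. Per kilobase of exon, Aldoa was the highest of the 9 with 846 FPKM at the DMSO mean, followed by Ldha with 295 and Pgk1 with 187. Hif1a stood at 44.9 FPKM, Pfkfb3 at 26.1, Pfkp at 15.1 and Hk2 at 12.9. Egln3 at 3.84 FPKM and Pdk1 at 3.03 FPKM were the lowest, and the added 1 in the log makes their differences too small. In astrocytes with DMSO the order differed, with Pgk1 at 601 FPKM, Aldoa at 535, Ldha at 223, Pfkp at 80.1, Pfkfb3 at 37.8, Hif1a at 28.9, Egln3 at 23.3, Hk2 at 10.7 and Pdk1 at 8.36.

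To determine which members responded to the necroptotic stimulus, T/S/Z was compared with DMSO in microglia. Hif1a, Egln3, Hk2, Pfkfb3 and Pgk1 rose, none fell, and Pfkp, Aldoa, Ldha and Pdk1 did not pass. Calling a gene took a fold change of more than 1.5 together with an adjusted p under 0.05 in limma (Benjamini-Hochberg over all genes tested). By this rule 5 of 9 members were called, and 29.6% of all genes tested were called in either direction. The median log2 difference was 0.59 over the 9 members and -0.08 over all genes tested. The ranges of T/S/Z and DMSO libraries did not overlap for 8 of the 9 members, Pdk1 being the exception. How many of all genes had groups apart was not counted, here or in the comparisons below, so these counts only describe the members. Without the fold limit, 8 of the 9 members and 7506 of 10524 genes tested had an adjusted p under 0.05 (limma).

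Hif1a showed the largest rise of the 9. Its log2 values in replicates 1 to 4 were 5.49, 5.51, 5.78 and 5.31 with DMSO and 6.94, 7.08, 7.12 and 7.12 with T/S/Z. Every T/S/Z library lay above every DMSO library, with a difference of 1.54 (SE 0.08, adjusted p = 1.9e-06, limma), or 2.91-fold. Egln3, the hydroxylase gene, stood at 1.99, 2.34, 2.45 and 2.32 with DMSO and at 3.28, 3.16, 3.15 and 3.60 with T/S/Z. The lowest T/S/Z library was well above the highest DMSO library, and the difference was 1.02 (SE 0.11, adjusted p = 0.000115, limma), or 2.03-fold.

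Pfkfb3 had the larger rise of the 2 called members that act at the start of glycolysis, Pfkfb3 and Hk2. Its DMSO libraries were spread, at 5.05, 4.86, 4.68 and 4.44, whereas its T/S/Z libraries lay close together at 6.18, 6.20, 6.19 and 6.22. The difference was 1.44 (SE 0.10, adjusted p = 9.03e-06, limma), or 2.71-fold. The hexokinase gene Hk2 stood at 3.74, 3.74, 3.84 and 3.89 with DMSO and at 4.40, 4.17, 4.40 and 4.59 with T/S/Z. All T/S/Z libraries were higher, but the difference of 0.59 (SE 0.07, adjusted p = 0.00011, limma), or 1.51-fold, was just past the fold limit. The Hk2 call was lost without replicate 1 (0.57) or without replicate 4 (0.55), and it was also lost with 5 in place of 1 added before the log (0.48). Pfkp differed by 0.42 (SE 0.10, adjusted p = 0.0067, limma), under the fold limit.

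Pgk1 was the enzyme gene of the later steps that passed. Its values were 7.58, 7.57, 7.60 and 7.48 with DMSO and 8.41, 8.39, 8.54 and 8.78 with T/S/Z, so that the groups stood apart by more than the spread in either. The difference was 0.97 (SE 0.08, adjusted p = 2.82e-05, limma), or 1.96-fold. After quantile normalization it was 0.50 and no longer passed the fold limit. Aldoa and Ldha had higher values in every T/S/Z library than in any DMSO library, by 0.43 (SE 0.04) and 0.47 (SE 0.07), which is under the fold limit. Pdk1 differed by 0.12 (SE 0.10, adjusted p = 0.334, limma), with overlapping groups.

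**Figure D1:**
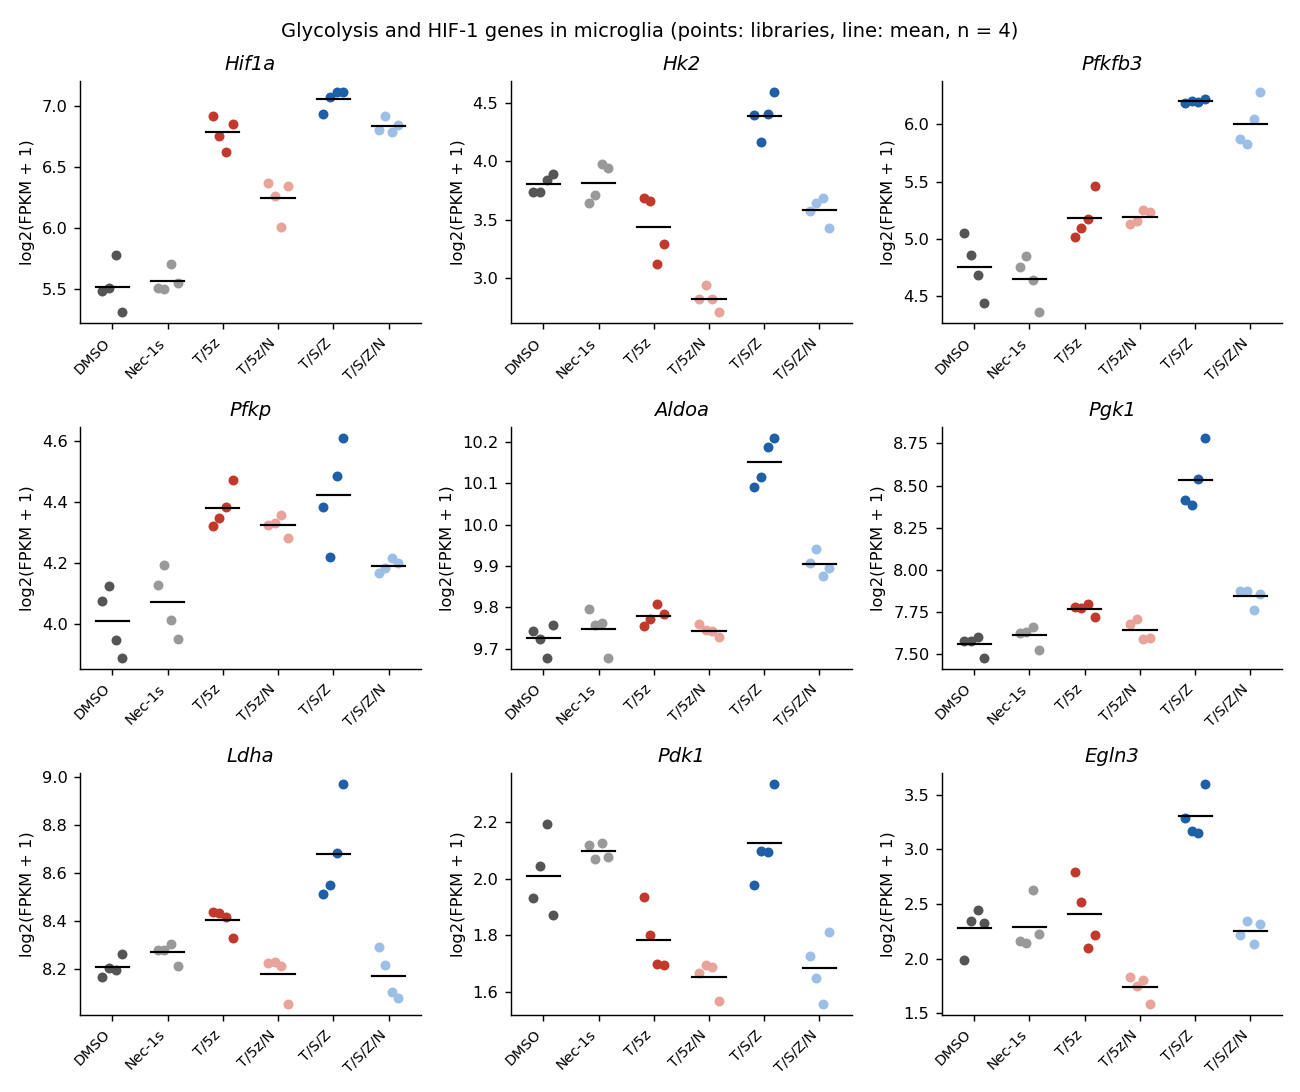
Expression of the 9 genes in microglia, 1 panel per gene, with the 6 treatments on the x axis and log2(FPKM + 1) on the y axis, whose range differs between panels. Points are libraries (4 per treatment) and lines are means. T/S/Z libraries are the highest for Egln3, Hk2 and Pgk1, and Nec-1s lowers them, whereas Hif1a and Pfkfb3 stay near 6.84 and 6.01 with T/S/Z/N.

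To assess how much of this response depended on the kinase activity of RIPK1, T/S/Z/N was compared with T/S/Z. Egln3, Hk2 and Pgk1 fell, and the means of all 9 members were lower with Nec-1s. The count was 3 of 9 members called, against 12.1% of all genes tested, and groups did not overlap for 8 members, all but Pfkfb3. The median log2 difference was -0.44 over the members and 0.06 over all genes tested.

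The members that rose with T/S/Z did not respond alike to Nec-1s. Egln3 came to 2.21, 2.35, 2.14 and 2.31 with T/S/Z/N, inside the range of DMSO. It fell by 1.05 (SE 0.08, adjusted p = 4.36e-05, limma), and 102% of its rise on the log2 scale was absent. Hk2 came to 3.58, 3.64, 3.69 and 3.42, and every one of these values was below the lowest DMSO value of 3.74. Hk2 fell by 0.81 (SE 0.09, adjusted p = 0.000295, limma), which is 137% of its rise. Pgk1 came to 7.87, 7.88, 7.76 and 7.85, between the DMSO and the T/S/Z libraries. It fell by 0.69 (SE 0.08, adjusted p = 0.000252, limma), 70.8% of its rise, and after quantile normalization it no longer passed, at -0.39.

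Hif1a and Pfkfb3 kept most of their rise. Hif1a stood at 6.81, 6.92, 6.79 and 6.84 with T/S/Z/N, below every T/S/Z library but far above DMSO. It differed from T/S/Z by -0.22 (SE 0.05, adjusted p = 0.00646, limma), under the fold limit, so that 14.4% of the rise was absent. Pfkfb3 stood at 5.87, 5.83, 6.05 and 6.28, with 1 library above all T/S/Z libraries. Its difference from T/S/Z was -0.19 (SE 0.07, adjusted p = 0.0493, limma), with 13.5% of the rise absent. Among the 4 members that had not passed both limits with T/S/Z, the difference from T/S/Z was -0.51 (SE 0.10) for Ldha, -0.44 (SE 0.07) for Pdk1, -0.25 (SE 0.07) for Aldoa and -0.23 (SE 0.06) for Pfkp. Each of these had an adjusted p under the threshold and a change under the fold limit, and Ldha passed without replicate 1, at -0.60.

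Against DMSO, 2 of 9 members were called with T/S/Z/N, and 14.1% of all genes tested. Hif1a was 1.32 higher (SE 0.09, adjusted p = 1.83e-05, limma) and Pfkfb3 1.25 higher (SE 0.15, adjusted p = 0.000425, limma). Egln3 differed by -0.02 (SE 0.10) and Ldha by -0.04 (SE 0.07), Hk2 by -0.22 (SE 0.08) and Pgk1 by 0.28 (SE 0.06). Groups did not overlap for 7 members, all but Egln3 and Ldha. The remaining differences were 0.18 (SE 0.07) for Pfkp, 0.18 (SE 0.06) for Aldoa and -0.33 (SE 0.10) for Pdk1.

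The apoptotic stimulus gave a narrower response. With T/5z against DMSO, Hif1a alone rose, 1 of 9 members called against 24.4% of all genes tested. This comparison uses the same DMSO libraries as that of T/S/Z. The median log2 difference was 0.20 over the members and -0.06 over all genes tested, and groups did not overlap for 5 of 9 members (Hif1a, Hk2, Pfkp, Pgk1 and Ldha). Hif1a stood at 6.92, 6.75, 6.63 and 6.86 with T/5z, every library above the highest DMSO library. Its rise was 1.27 (SE 0.11, adjusted p = 6.28e-05, limma), or 2.41-fold.

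Hk2 stood at 3.68, 3.66, 3.12 and 3.29 with T/5z, and each library was below the lowest with DMSO. The difference was -0.36 (SE 0.12, adjusted p = 0.0366, limma), under the fold limit and of the opposite sign to that with T/S/Z. Pfkfb3 differed by 0.43 (SE 0.15, adjusted p = 0.0442, limma), with 1 T/5z library inside the range of DMSO, and Pfkp by 0.37 (SE 0.07, adjusted p = 0.00346, limma). Egln3 was spread from 2.09 to 2.79 over the T/5z libraries, around the DMSO values, with a difference of 0.13 (SE 0.17). The other differences were 0.21 (SE 0.04) for Pgk1, 0.20 (SE 0.05) for Ldha, 0.05 (SE 0.04) for Aldoa and -0.23 (SE 0.09) for Pdk1.

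When Nec-1s was added to T/5z, Hk2 and Egln3 fell, although neither had risen with T/5z. These were 2 of 9 members, against 7.16% of all genes tested, and groups did not overlap for 6 members (Hif1a, Egln3, Hk2, Pgk1, Ldha and Pdk1). Hk2 came to 2.81, 2.94, 2.82 and 2.70, the lowest values it had in any microglial group, and fell by 0.62 (SE 0.09, adjusted p = 0.00074, limma). Egln3 came to 1.83, 1.75, 1.81 and 1.59, also its lowest values, and fell by 0.66 (SE 0.11, adjusted p = 0.00137, limma). Both calls were lost without replicate 1 (-0.54 for Hk2, -0.56 for Egln3) and with 5 added before the log (-0.43 and -0.34), and that of Egln3 also with the ordinary variance of each gene (adjusted p = 0.0576, limma without moderation).

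Hif1a stood at 6.37, 6.26, 6.01 and 6.35 with T/5z/N, between DMSO and T/5z with no overlap with either. The difference from T/5z was -0.54 (SE 0.04, adjusted p = 2.43e-05, limma), in 4 of 4 replicates, just under the fold limit, and 42.6% of the rise was absent. When libraries were centered on their median it was -0.59 and passed. The differences of the other members were -0.22 (SE 0.04) for Ldha, -0.13 (SE 0.04) for Pgk1, -0.13 (SE 0.07) for Pdk1, -0.06 (SE 0.05) for Pfkp, -0.04 (SE 0.04) for Aldoa and 0.01 (SE 0.06) for Pfkfb3. The median difference over the members was -0.13, and that over all genes tested was 0.04.

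Against DMSO, T/5z/N left Hif1a 0.73 higher (SE 0.12, adjusted p = 0.00137, limma) and Hk2 lower, with a difference of -0.98 (SE 0.08, adjusted p = 2.39e-05, limma). These were 2 of 9 members, against 12.8% of all genes tested, and the Hif1a call was lost with the ordinary variance of each gene (adjusted p = 0.0757, limma without moderation). Egln3 differed by -0.53 (SE 0.10, adjusted p = 0.00395, limma), and passed the fold limit without replicate 1, at -0.66. Groups did not overlap for 6 members, these 3 with Pfkfb3 at 0.43 (SE 0.11), Pfkp at 0.32 (SE 0.06) and Pdk1 at -0.36 (SE 0.08). Aldoa, Pgk1 and Ldha differed by 0.02, 0.09 and -0.03.

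A direct comparison of the stimuli in microglia was made next. With T/S/Z, Hk2, Pfkfb3, Pgk1 and Egln3 were higher than with T/5z, and none was lower. These were 4 of 9 members, against 9.83% of all genes tested. The difference was 1.01 for Pfkfb3 (SE 0.07, adjusted p = 6.61e-05, limma), 0.95 for Hk2 (SE 0.14, adjusted p = 0.00179, limma), 0.90 for Egln3 (SE 0.14, adjusted p = 0.00269, limma) and 0.76 for Pgk1 (SE 0.08, adjusted p = 0.000379, limma). Hif1a, by contrast, differed by 0.27 (SE 0.08, adjusted p = 0.0263, limma), under the fold limit. Groups did not overlap for 8 of 9 members, all but Pfkp at 0.04 (SE 0.06), with Aldoa 0.37 (SE 0.05), Pdk1 0.34 (SE 0.11) and Ldha 0.27 (SE 0.09) higher. Calls of Hk2 and Egln3 were lost with the ordinary variance of each gene (adjusted p = 0.0638 and 0.07, limma without moderation), that of Egln3 with 5 added before the log (0.57), and that of Pgk1 after quantile normalization (0.55).

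Whether Nec-1s acted differently under the 2 stimuli was tested as an interaction, the effect of Nec-1s on cells given T/5z minus its effect on those given T/S/Z. By limma with both limits, 0 of 9 members were called, against 6.47% of all genes tested. Without the fold limit, 2721 of 10524 genes tested had an adjusted p under 0.05. Among the members 7 had an unadjusted p under 0.05 and 3 an adjusted p under it. Those 3 were Pgk1, Aldoa and Hif1a. For Pgk1 the effect of Nec-1s was -0.13 in T/5z cells and -0.69 in T/S/Z cells, an interaction of 0.56 (SE 0.10, adjusted p = 0.00108, limma) that fell just short of the fold limit. It passed when libraries were centered on their median (0.59) and without replicate 1 (0.61) or replicate 2 (0.60). The interaction was 0.21 for Aldoa (SE 0.06, adjusted p = 0.022, limma) and -0.32 for Hif1a (SE 0.10, adjusted p = 0.0287, limma), whose difference with Nec-1s was -0.54 in T/5z cells and -0.22 in T/S/Z cells. Hk2 had 0.19 (SE 0.17, adjusted p = 0.432, limma) and Egln3 0.39 (SE 0.18, adjusted p = 0.126, limma). Pdk1 and Ldha had 0.31 (SE 0.12) and 0.28 (SE 0.13), and Pfkfb3 and Pfkp 0.20 (SE 0.09) and 0.18 (SE 0.08).

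Nec-1s alone was the control for these comparisons. In microglia, 0 of 9 members were called by limma against DMSO, none had an unadjusted p under 0.05, and groups overlapped for all 9. The share of all genes tested that was called was 0%, with 892 genes at an unadjusted p under 0.05, and the differences of the members lay between -0.11 for Pfkfb3 (SE 0.05) and 0.09 for Pdk1 (SE 0.07). Between them lay Egln3 at 0.01, Hk2 and Aldoa at 0.02 each, Hif1a and Pgk1 at 0.05 each, and Pfkp and Ldha at 0.06 each.

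**Figure D2:**
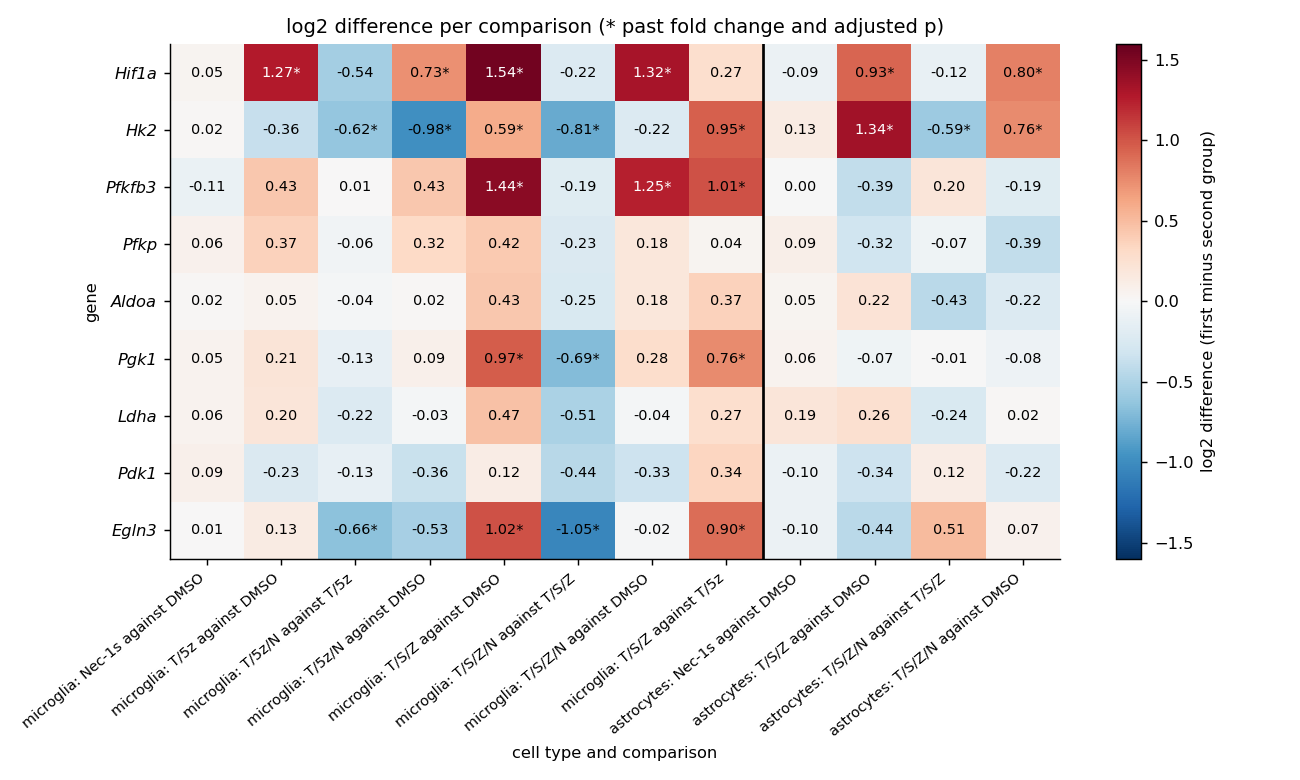
Log2 difference (first minus second group, color and number) of each of the 9 genes (y axis) in 8 microglial and 4 astrocyte comparisons (x axis, split by the black line). Stars mark differences past both limits. Hif1a has stars in all stimulus comparisons with DMSO in both cell types, and Pfkfb3 shows 1.44 with T/S/Z in microglia and -0.39 in astrocytes.

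Ordering the treatments by mean level summarizes the microglial patterns of the members that rose. For Hif1a the order from low to high was DMSO, Nec-1s, T/5z/N, T/5z, T/S/Z/N and T/S/Z, where DMSO and Nec-1s overlapped, as did T/5z and T/S/Z/N. For Hk2 it was T/5z/N, T/5z, T/S/Z/N, DMSO, Nec-1s and T/S/Z, where T/5z overlapped with T/S/Z/N, and DMSO with Nec-1s. Hk2 was thus lower with T/5z than with DMSO, where Hif1a was higher. Pgk1 had the order of Hif1a, where DMSO overlapped with Nec-1s, Nec-1s with T/5z/N, and T/5z with T/S/Z/N. The order of Egln3 was T/5z/N, T/S/Z/N, DMSO, Nec-1s, T/5z and T/S/Z, with gaps without overlap above T/5z/N and below T/S/Z. The order of Pfkfb3 was Nec-1s, DMSO, T/5z, T/5z/N, T/S/Z/N and T/S/Z, and the gap without overlap lay below T/S/Z/N.

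The other genes of glycolysis were then examined in microglia, with 17 of 19 listed genes past the filter. Aldoc would not have passed without the libraries of the 2 stimuli given without Nec-1s, so the counts cover the other 16. Eno2 is among the 16 but passed through stimulated groups. It reached the filter level in 1 DMSO, 0 Nec-1s and 1 T/S/Z/N libraries and in 4 libraries each of T/5z, T/5z/N and T/S/Z. Its differences are therefore a description only. Against DMSO, 4 rose and 2 fell with T/S/Z, 6 of 16 where 29.6% of all genes tested were called, with a median of -0.0013 where that of all genes was -0.08. Pfkl, the liver-type phosphofructokinase gene, rose by 1.56 (SE 0.10) and the enolase gene Eno2 by 1.13 (SE 0.17), with Gapdh and Pgam1 rising by 0.69 (SE 0.06) and 0.67 (SE 0.08). Pdk2, a relative of Pdk1, fell by 2.08 (SE 0.08) and Pfkfb4, a relative of Pfkfb3, fell by 1.08 (SE 0.06). With T/5z 2 rose and 2 fell, against 24.4% of all genes called, namely Pfkl (1.26, SE 0.07), Eno2 (0.79, SE 0.15), Pdk2 (-1.55, SE 0.10) and Pfkfb2 (-0.66, SE 0.08). In T/S/Z/N against T/S/Z, where 12.1% of all genes were called, Eno2 (-0.96, SE 0.10) and Pgam1 (-0.78, SE 0.08) fell, whereas Pdk2 (1.24, SE 0.06) and Pfkfb4 (0.61, SE 0.05) rose. In T/5z/N against T/5z, where 7.16% of all genes were called, it was Pdk2 that rose (1.07, SE 0.07), and no other of the 16 passed.

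Carriers of glucose and lactate differed from DMSO by up to 3.90 on the log2 scale in microglia. All 8 listed genes were tested, and with T/S/Z 3 rose and 2 fell, 5 of 8 where 29.6% of all genes were called. The glucose transporter gene Slc2a1 went from a mean of 4.45 to 7.64, a rise of 3.20 (SE 0.08, adjusted p = 1.13e-07, limma), and Slc2a6 rose by 2.30 (SE 0.15). Slc16a3, which encodes a lactate exporter, rose by 2.05 (SE 0.09), whereas Slc2a8 and Slc16a7 fell by 1.16 (SE 0.09) and 0.87 (SE 0.09). With T/5z, against the same DMSO libraries, 3 rose and 2 fell (24.4% of all genes called), with Slc2a6 at 3.90 (SE 0.14), Slc2a1 at 1.87 (SE 0.08), Slc16a3 at 0.97 (SE 0.06), Slc2a8 at -0.97 (SE 0.07) and Slc16a7 at -0.73 (SE 0.07). In T/S/Z/N against T/S/Z 4 fell and 1 rose (12.1% of all genes called), led by Slc2a1 at -1.46 (SE 0.06) and Slc16a3 at -1.07 (SE 0.12), with Slc2a8 at 0.59 (SE 0.06). Adding Nec-1s to T/5z, 3 fell (7.16% of all genes called), Slc2a1 (-1.30, SE 0.04), Slc2a6 (-0.90, SE 0.04) and Slc16a3 (-0.68, SE 0.08).

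Of 8 other subunits and regulators of HIF 6 were tested in microglia, and the counts cover the 5 without Arnt2. By limma 0 of these 5 were called with T/S/Z (29.6% of all genes called) or in T/S/Z/N against T/S/Z (12.1%). The subunit gene Arnt2 had a mean of 0.44 with DMSO and 1.13 with T/5z. It reached the level of the low-value filter in 3 T/5z libraries and 1 T/S/Z library and in no other, so its difference is a description only. Of 16 known HIF targets outside glycolysis 15 were tested. Adm and Ankrd37 would not have passed the filter without the libraries of the 2 stimuli given without Nec-1s, so their values too are a description, and the counts here cover the other 13 targets. Of these 5 rose and 1 fell with T/S/Z, 6 of 13 where 29.6% of all genes were called, and the median was 0.38. Cited2, which encodes an inhibitor of HIF, rose by 2.82 (SE 0.05, adjusted p = 3.25e-08, limma) and Ero1l, an oxidase gene of the endoplasmic reticulum, by 1.41 (SE 0.09), whereas the mitophagy gene Bnip3l fell by 0.67 (SE 0.08). With T/5z 3 rose and 3 fell, 6 of 13 against 24.4% of all genes, led by Cited2 (1.97, SE 0.05). The difference of Adm, which encodes the peptide adrenomedullin, was 2.25 (SE 0.13). Vegfa, the gene of a vessel growth factor, fell by 1.38 (SE 0.12) and Mxi1 by 0.64 (SE 0.05).

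Nec-1s lowered 6 of these 13 HIF targets in cells given T/S/Z and raised none, where 12.1% of all genes were called, with a median of -0.39. The largest decreases were those of Cited2 (-1.83, SE 0.09) and Ndrg1 (-1.24, SE 0.11). In cells given T/5z it lowered 1 of the 13, Cited2 (-0.99, SE 0.06), against 7.16% of all genes. The interaction with the stimulus was called for 3 of the 13, against 6.47% of all genes, with the larger decrease under T/S/Z for Ndrg1 (0.96, SE 0.16), Cited2 (0.84, SE 0.11) and Bnip3 (0.67, SE 0.14). Of 7 genes of the pentose phosphate pathway, all tested, 0 were called by limma with T/5z, T/S/Z or Nec-1s added to either. Of all genes, 24.4% were called with T/5z, 29.6% with T/S/Z, 7.16% with Nec-1s added to T/5z and 12.1% with it added to T/S/Z.

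**Figure D3:**
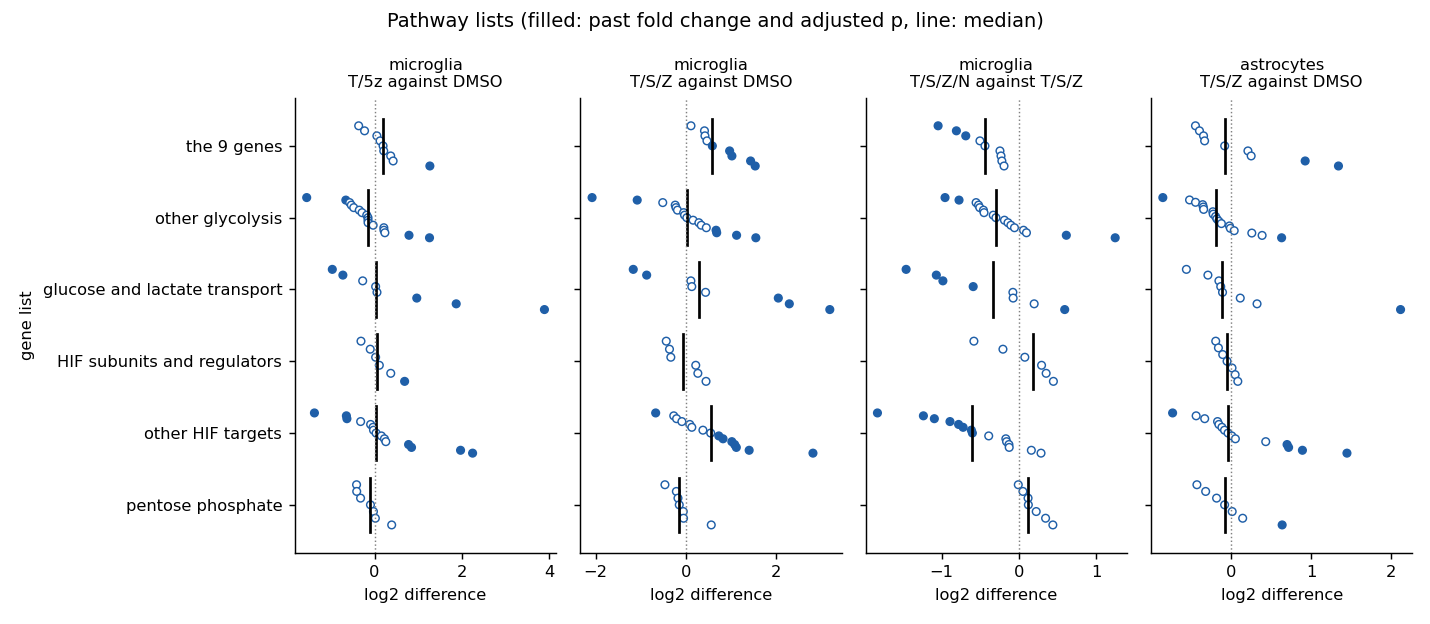
Log2 difference (x axis) of each tested gene in 6 lists (y axis) for 3 microglial comparisons and 1 astrocyte comparison, 1 point per gene, ordered by value within a list. Filled points passed both limits and black lines are list medians. In microglia with T/S/Z the medians of the 9 genes (0.59) and of the other HIF targets (0.55, or 0.38 without Adm and Ankrd37) lie above that of other glycolysis (0.02, or -0.0013 without Aldoc), and Slc2a1 at 3.20 is the farthest point.

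In astrocytes the response of the set to T/S/Z was carried by Hif1a and Hk2. Both rose against DMSO, none fell, and the other 7 members did not pass. These were 2 of 9 members, against 15.4% of all genes tested, with a median difference of -0.07 over the members and -0.11 over all genes. Groups did not overlap for 6 members (Hif1a, Hk2, Pfkfb3, Pfkp, Pdk1 and Egln3). Hk2 stood at 3.56, 3.66 and 3.43 with DMSO and at 4.95, 4.76 and 4.96 with T/S/Z. Every T/S/Z library was above every DMSO library, and the rise was 1.34 (SE 0.10, adjusted p = 8.89e-05, limma), or 2.53-fold. Hif1a stood at 4.86, 4.89 and 4.95 with DMSO and at 5.71, 5.74 and 6.02 with T/S/Z, a rise of 0.93 (SE 0.08, adjusted p = 0.000162, limma), or 1.90-fold. With the ordinary variance of each gene neither passed (adjusted p = 0.073 for Hk2 and 0.0677 for Hif1a, limma without moderation).

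The hydroxylase gene and the control genes had lower values in astrocytes with T/S/Z. Egln3 stood at 4.64, 4.55 and 4.62 with DMSO and at 4.10, 4.21 and 4.19 with T/S/Z, a difference of -0.44 (SE 0.08, adjusted p = 0.00519, limma) that is under the fold limit. Pfkfb3 was lower in every T/S/Z library, at 4.88, 4.86 and 4.93 against 5.25, 5.33 and 5.26, a difference of -0.39 (SE 0.07, adjusted p = 0.00577, limma). Pfkp and Pdk1 differed by -0.32 (SE 0.08) and -0.34 (SE 0.10), also with groups apart. The enzymes of the later steps overlapped between the groups, with 0.22 (SE 0.11) for Aldoa, -0.07 (SE 0.10) for Pgk1 and 0.26 (SE 0.09) for Ldha. A second gene with the symbol Aldoa (ENSMUSG00000114515, chr7:126800790-126809108) is listed in the astrocyte table next to the first and did not pass the filter.

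Markers of other cells moved in these astrocyte libraries. The 6 fibroblast or vessel markers in the table summed to 519 to 529 FPKM with DMSO, 95.9 to 105.6 with T/S/Z and 419 to 425 with T/S/Z/N, and all 6 fell with T/S/Z. The 9 microglial markers summed to 76.6 to 82.1, 46.7 to 50.2 and 68.2 to 72.1 FPKM in the same groups, and 7 oligodendrocyte lineage markers to 100.2 to 117.4, 60.3 to 86.9 and 67.9 to 71.9. These sums were lower with T/S/Z, as were Egln3, Pfkfb3, Pfkp and Pdk1, and their part in the results of the astrocytes was not tested.

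Nec-1s lowered Hk2 in astrocytes treated with T/S/Z, the single member called, 1 of 9 against 3.1% of all genes tested. Groups did not overlap for 6 members (Egln3, Hk2, Pfkp, Pfkfb3, Aldoa and Ldha). Hk2 came to 4.35, 4.24 and 4.33 with T/S/Z/N, between DMSO and T/S/Z without overlap. It fell by 0.59 (SE 0.08, adjusted p = 0.0101, limma), at the fold limit, with 43.7% of the rise absent, and the call was lost without replicate 1 (-0.58), replicate 2 (adjusted p = 0.0822) or replicate 3 (-0.56), with 5 added before the log (-0.50), after quantile normalization (-0.57) and with the ordinary variance of each gene (adjusted p = 0.196). Hif1a stood at 5.69, 5.67 and 5.76, a difference of -0.12 (SE 0.09, adjusted p = 0.375, limma) with 13.3% of the rise absent.

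Egln3 was higher with Nec-1s in astrocytes, at 4.77, 4.74 and 4.51, above every T/S/Z library. Its difference of 0.51 (SE 0.10, adjusted p = 0.0283, limma) was under the fold limit and passed it without replicate 3, at 0.60. Aldoa differed by -0.43 (SE 0.11, adjusted p = 0.0558, limma), Ldha by -0.24 (SE 0.09) and Pfkfb3 by 0.20 (SE 0.08). Pdk1, Pfkp and Pgk1 differed by 0.12 (SE 0.11), -0.07 (SE 0.08) and -0.01 (SE 0.09).

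Against DMSO, astrocytes with T/S/Z/N had 2 of 9 members called, against 9.08% of all genes tested. Hif1a was 0.80 higher (SE 0.06, adjusted p = 0.000475, limma) and Hk2 0.76 higher (SE 0.09, adjusted p = 0.00225, limma), and neither passed with the ordinary variance of each gene (adjusted p = 0.0593 and 0.119, limma without moderation). Groups did not overlap for 6 members, among them Pfkp at -0.39 (SE 0.06), Pdk1 at -0.22 (SE 0.09), Aldoa at -0.22 (SE 0.07) and Pfkfb3 at -0.19 (SE 0.06). Groups overlapped for Pgk1 at -0.08 (SE 0.08), Egln3 at 0.07 (SE 0.08) and Ldha at 0.02 (SE 0.08). With Nec-1s alone 0 of 9 members were called by limma, against 0.0144% of all genes tested, and Ldha, at 0.19 (SE 0.07), was the 1 member with an unadjusted p under 0.05. Hif1a and Ldha were the 2 members whose groups did not overlap there. The differences of the other 8 were 0.13 for Hk2, 0.09 for Pfkp, 0.06 for Pgk1, 0.05 for Aldoa, -0.00037 for Pfkfb3, -0.09 for Hif1a, -0.10 for Pdk1 and -0.10 for Egln3.

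**Figure D4:**
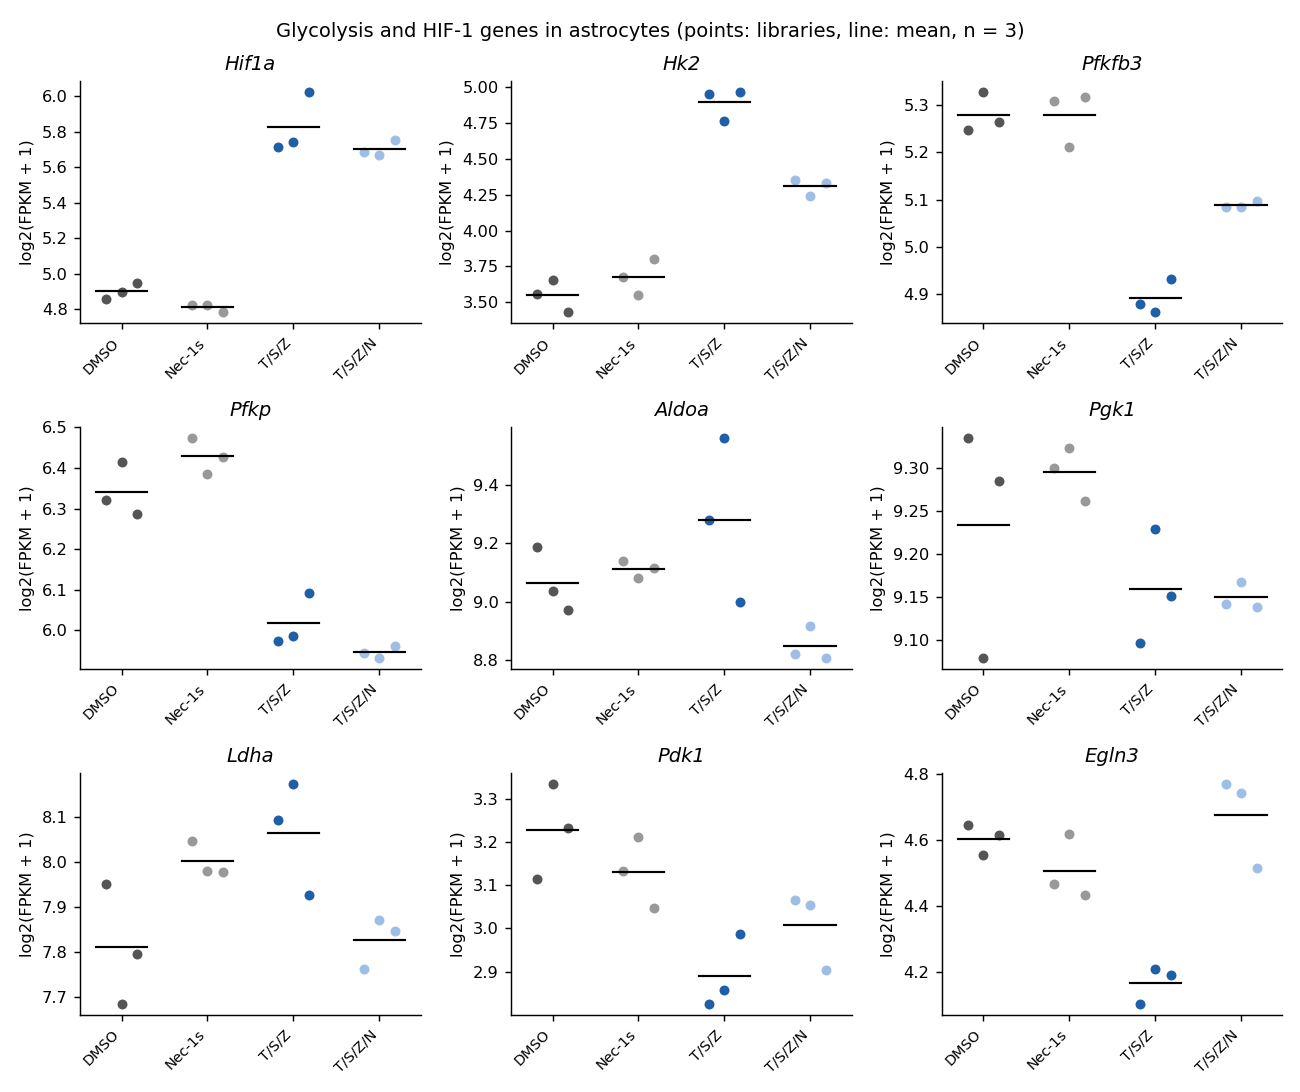
Expression of the 9 genes in astrocytes, 1 panel per gene, with the 4 treatments on the x axis and log2(FPKM + 1) on the y axis, whose range differs between panels. Points are libraries (3 per treatment) and lines are means. Hk2 rises from a mean of 3.55 to 4.89 with T/S/Z and lies at 4.31 with T/S/Z/N, whereas Egln3 has means of 4.60 with DMSO, 4.17 with T/S/Z and 4.68 with T/S/Z/N.

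In astrocytes with T/S/Z, where 15.4% of all genes tested were called, 2 of 18 other glycolysis genes, 1 of 8 carriers and 5 of 15 HIF targets passed. Of the glycolysis genes Eno2 rose (0.63, SE 0.10) and Pdk2 fell (-0.84, SE 0.09). Of 8 carriers Slc2a6 rose by 2.11 (SE 0.10, adjusted p = 1.22e-05, limma), and no other passed. Of 15 HIF targets 4 rose, led by Cited2 (1.45, SE 0.11) and Ndrg1 (0.89, SE 0.07), and 1 fell, Mxi1 (-0.72, SE 0.08), with a median of -0.03. Rpia was the 1 gene called of 7 in the pentose phosphate pathway (0.64, SE 0.09), and 0 of 7 HIF subunits and regulators were called by limma. In T/S/Z/N against T/S/Z, Adm fell by 0.65 (SE 0.10, adjusted p = 0.0122, limma), the 1 gene called in these 5 lists, where 3.1% of all genes were called.

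The genes whose pattern over all libraries of a table was most like that of each called member were listed by Pearson's r of the log2 values, as a description over libraries that share treatments. Over the 24 microglial libraries these were Ppfibp1 (r = 0.987) and Cyfip1 (0.986) for Hif1a, and P4ha1 (0.960), a collagen prolyl hydroxylase gene in the list of HIF targets, and Bin1 (0.944) for Egln3. Hk2 was most like Dusp7 (0.962) and Cspg4 (0.944), the latter also one of the oligodendrocyte lineage markers. For Pfkfb3 they were Alas1 (0.949), which encodes the first enzyme of heme synthesis, and Slc25a33 (0.939), and for Pgk1 they were Arih2 (0.984) and Tgoln1 (0.981). Over the 12 astrocyte libraries Hif1a was most like Serpinb2 (0.994) and Ctps (0.993), and Hk2 most like Trabd2b (0.992) and Itga5 (0.991).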

How the data were processed

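RNA-seq was made from 24 microglial and 12 astrocyte libraries. The authors quantified genes in OmicSoft Array Studio (version 10.1.1.3) and deposited log2 values of FPKM with 1 added, scaled to a common 75th percentile, in a table per cell type. The aligner settings and read totals are not given in the tables, so depth is unknown and the number of replicates limits precision. The columns of all 36 libraries were used.

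Genes with a log2 value of at least 1 in at least 4 microglial or 3 astrocyte libraries were tested, 10524 of 15385 and 13842 of 14551. Groups were compared with limma 3.58.1 (lmFit, eBayes with trend, R 4.3.3), 2-sided, on the libraries of the groups being compared, and replicate number entered the fit as a block, since the study's own test was paired. The test was checked on simulated data. Labels do not say what a replicate number shares. Deviations of same-numbered libraries correlated at -0.458 to 0.257 (microglia) and -0.144 to 0.411 (astrocytes). The equal replicate means of the microglial table push such correlations below 0, so they say nothing on pairing there.

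All 9 members are named in every comparison. From each other list, the 2 called genes with the largest rise and the 2 with the largest fall with a stimulus, or with Nec-1s added to it, are named with a few others chosen after their values were seen. The members and lists were chosen with earlier results of these data known. Mog, Cldn5 and Rbfox3 of the marker lists were not analysed here. Alternatives covered the added constant, filters, normalization, block, variance, fold limit, groups fitted and each replicate left out.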

Additional observations from a re-analysis of the deposited data

Results flagged for a closer look

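In 54 groups of 4 microglial libraries (9 members, 6 treatments), 2 libraries stood apart from the rest of their group by Dixon's criterion, which chance alone meets in about 1 of 20 groups. Ldha stood at 8.056 in replicate 4 with T/5z/N, where the nearest other library had 8.2119. Egln3 stood at 2.6265 in replicate 3 with Nec-1s alone, where the nearest other library had 2.2218.

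Several members differed from the compared group in one direction in every microglial replicate and in the other direction in every astrocyte replicate. The difference between the cell types was not tested, since the tables were made and normalized separately. With T/S/Z against DMSO, Pfkfb3 had a log2 difference of 1.44 in microglia and -0.39 in astrocytes, Egln3 1.02 and -0.44, and Pfkp 0.42 and -0.32. With T/S/Z/N against DMSO, Pfkfb3 had 1.25 in microglia and -0.19 in astrocytes, Hk2 -0.22 and 0.76, Pfkp 0.18 and -0.39, and Aldoa 0.18 and -0.22. With T/S/Z/N against T/S/Z, Egln3 had -1.05 in microglia and 0.51 in astrocytes. Of these, Pfkfb3 and Egln3 in microglia and Hk2 in astrocytes passed both limits.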

How the results depend on the processing

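No member's difference changed direction under any alternative in which it was called, and for 117 values (9 members in 13 comparisons) over all alternatives, 1618 results stayed on their side of the limits, 40 calls were lost and 43 were gained. The fit without the replicate block (no pairing) kept all 117 and gave the same counts of called members, as did no filter on low values and a fit of all groups together. In microglia the replicate means of each gene had already been made equal before the fit. Leaving out the block is therefore no check on pairing there.

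The larger moves in the counts of called members were as follows. Without a minimum fold change the counts were these, with the reported count and then the number of all genes called in parentheses. In microglia, of 10524 genes tested, they were 6 for T/5z against DMSO (1, 6760) and 5 for T/5z/N against T/5z (2, 5088). T/5z/N against DMSO had 6 (2, 4259), T/S/Z against DMSO 8 (5, 7506) and T/S/Z/N against T/S/Z 9 (3, 6087). T/S/Z/N against DMSO had 5 (2, 4837), T/S/Z against T/5z 7 (4, 4214) and the interaction 3 (0, 2721). In astrocytes, of 13842 genes tested, T/S/Z against DMSO had 6 (2, 5588) and T/S/Z/N against T/S/Z 2 (1, 1083). T/S/Z/N against DMSO had 3 (2, 3736). With a minimum of 2 they were 0 for T/5z/N against T/5z and against DMSO, 3 for T/S/Z against DMSO, 1 for T/S/Z/N against T/S/Z and 1 for T/S/Z against T/5z in microglia, and 1, 0 and 0 for T/S/Z against DMSO, T/S/Z/N against T/S/Z and T/S/Z/N against DMSO in astrocytes. Over all genes these comparisons had 182, 573, 1202, 335 and 399 called in microglia and 766, 107 and 386 in astrocytes. With the ordinary variance of each gene the counts of called members were 1 for T/5z/N against T/5z, 1 for T/5z/N against DMSO and 2 for T/S/Z against T/5z in microglia, and 0 for these 3 astrocyte comparisons. Over all genes they had 650, 1186 and 821 called in microglia and 281, 3 and 50 in astrocytes. With 5 added before the log 0 members were called for T/5z/N against T/5z in microglia and 0 for T/S/Z/N against T/S/Z in astrocytes, and the latter also gave 0 after quantile normalization. Over all genes, 314 and 180 were called with 5 added, and 414 in astrocytes after quantile normalization. Centering on the library median gave 1 for the interaction. A mean log2 value of at least 3 gave 1 for T/5z/N against T/5z, because Egln3 was then not tested. Leaving out 1 replicate gave 0 to 2 for T/5z/N against T/5z and 0 to 1 for the interaction in microglia, and 0 to 1 for T/S/Z/N against T/S/Z in astrocytes. In microglia it also gave 4 to 5 for T/S/Z against DMSO, 2 to 3 for T/5z/N against DMSO and 3 to 4 for T/S/Z/N against T/S/Z. After quantile normalization Pgk1 was lost in microglia for T/S/Z against DMSO, T/S/Z against T/5z and T/S/Z/N against T/S/Z. Other causes were not tested.

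Over all genes the counts called with T/S/Z against DMSO in microglia went from 3118 to 1633 with 5 added before the log, and in astrocytes from 2130 to 985 and, with the ordinary variance, to 281. Centering on the library median moved the share of rises among the genes called with T/S/Z in microglia from 41.1% to 52.7%. Depth is unknown, so how far it limits the members with low values, Pdk1 and Egln3 in microglia, cannot be stated.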
